A study of Mus musculus with 2 samples.

Results

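Amino acid transporters are membrane proteins that move amino acids across the plasma membrane and across the membranes of lysosomes. The genes described here are those found by a rule on symbols, all probe sets whose only gene symbol in the platform annotation begins with Slc1a, Slc3a, Slc7a, Slc36a, Slc38a or Slc43a. This gave 89 of 45101 probe sets, or 42 of 18193 genes. The 16 genes of family Slc7a, 9 of Slc38a, 7 of Slc1a, 5 of Slc36a, 3 of Slc43a and 2 of Slc3a make up the set. Of these, Slc36a1os is a long non-coding RNA gene, Slc7a6os encodes a protein that is not a carrier, and Slc43a3 is known for purine nucleobases, so a symbol alone does not make each of them an amino acid carrier.

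The samples came from the pancreas of male offspring of C57BL/6J females, in 2 groups set by the mothers' food. The mothers in the control group were given control diet in pregnancy, and those in the methionine-deficient group a methionine-deficient diet, short of an amino acid that animals cannot make and must take up from food. All offspring received control diet after weaning at 3 weeks, up to an age of 10 weeks, and none was treated directly. Each group was pooled and read on 1 expression array (n = 1 array per group), so no spread between mice or between arrays was measured and no p-value is given. How many mice and litters made up a pool is not stated in the labels. The comparison asks which transcripts of these carriers differ in the adult pancreas after a maternal diet low in methionine.

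Cells of the exocrine pancreas make more secreted protein for their mass than most other cells, and they depend on a steady uptake of amino acids. Many plasma membrane carriers are exchangers. A light chain of family Slc7a pairs with the heavy chain Slc3a2, also known as CD98 or 4F2hc, and swaps an amino acid inside the cell for another outside. Carriers of family Slc38 bring in small neutral amino acids with sodium, and the exchangers then trade these for larger ones. Methionine enters mainly through the large neutral carriers Slc7a5, Slc7a8, Slc43a1 and Slc43a2, through Slc38a1 and Slc38a2, and through the exchangers Slc7a6 and Slc7a7. When amino acids are scarce, the transcription factor ATF4 raises several carriers by binding a short DNA element in or near their genes.

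The deposited value is a linear intensity per probe set, and differences are on the log2(intensity + 1) scale, methionine-deficient minus control. A gene is represented by its brightest probe set, and it was kept for counts if its mean level was at least that of the median probe set, an intensity of 150. This level filter kept 30 of the 42 genes and 52 of the 89 probe sets. As no replicate exists, each difference is set beside the probe-set spread, a robust SD of the log2 difference between probe sets of the same gene at a similar level. It was 0.80 in the dimmest of 5 level bins of probe sets past the filter, then 0.58, 0.40, 0.29 and 0.17 in the brightest bin. It covers probe noise within these 2 arrays only.

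Of the 30 genes of the set past the filter, 13 were higher and 17 lower in the methionine-deficient pool. Slc43a3 and Slc7a6os, set apart above, are among the 13 higher. The median log2 difference over the 30 genes was -0.02 (fold 0.985), beside -7.7e-06 over all 11848 genes past the filter. The split of the 30 was 10 higher and 20 lower with each array's median subtracted, and 7 and 23 with scaling to the poly-A spike-in controls. Both settings shift every gene by the same amount, and the median of all genes was then -0.05 and -0.18. Among the 20 brightest of the set with no rescaling, a number chosen after values were seen, 15 were lower and 5 higher, and the median difference was -0.12. Of all genes past the filter 50% were lower with no rescaling. In the next-to-brightest of 5 level bins 6 of 7 genes of the set were lower, against 50.1% of all genes there. Of these 6, Slc7a4, Slc7a6 and Slc38a7 lay within 1 probe-set spread of 0. Another probe set of Slc7a4, Slc7a6 and Slc1a4 in that bin was higher. In the brightest bin 5 of 9 genes of the set were lower, against 55.2% of all genes there. At least 2-fold differences were seen for Slc7a10, which was higher, and for Slc38a9, which was lower. As background, 3.87% of all genes past the filter differed upward by 2-fold or more, 2.8% downward and 6.68% either way, so 2 of 30 is near that background. At 1.5-fold, 4 members were higher and 3 lower, against 10.4% and 9% of all genes, or 19.4% in either direction. A count of differences larger than the probe-set spread, added after values were seen, gave 14 of 30 members past 1 spread and 7 of 30 past 2 spreads. The same shares over all genes were 34.7% and 8.34%. The 7 genes were Slc3a2, Slc7a2, Slc38a1, Slc7a3, Slc1a4, Slc38a9 and Slc7a10, and 4 of them lay only just past 2 spreads, Slc7a3 by the least, then Slc7a10 at 2.06, Slc38a1 at 2.10 and Slc1a4 at 2.11 spreads.

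**Figure D1:**
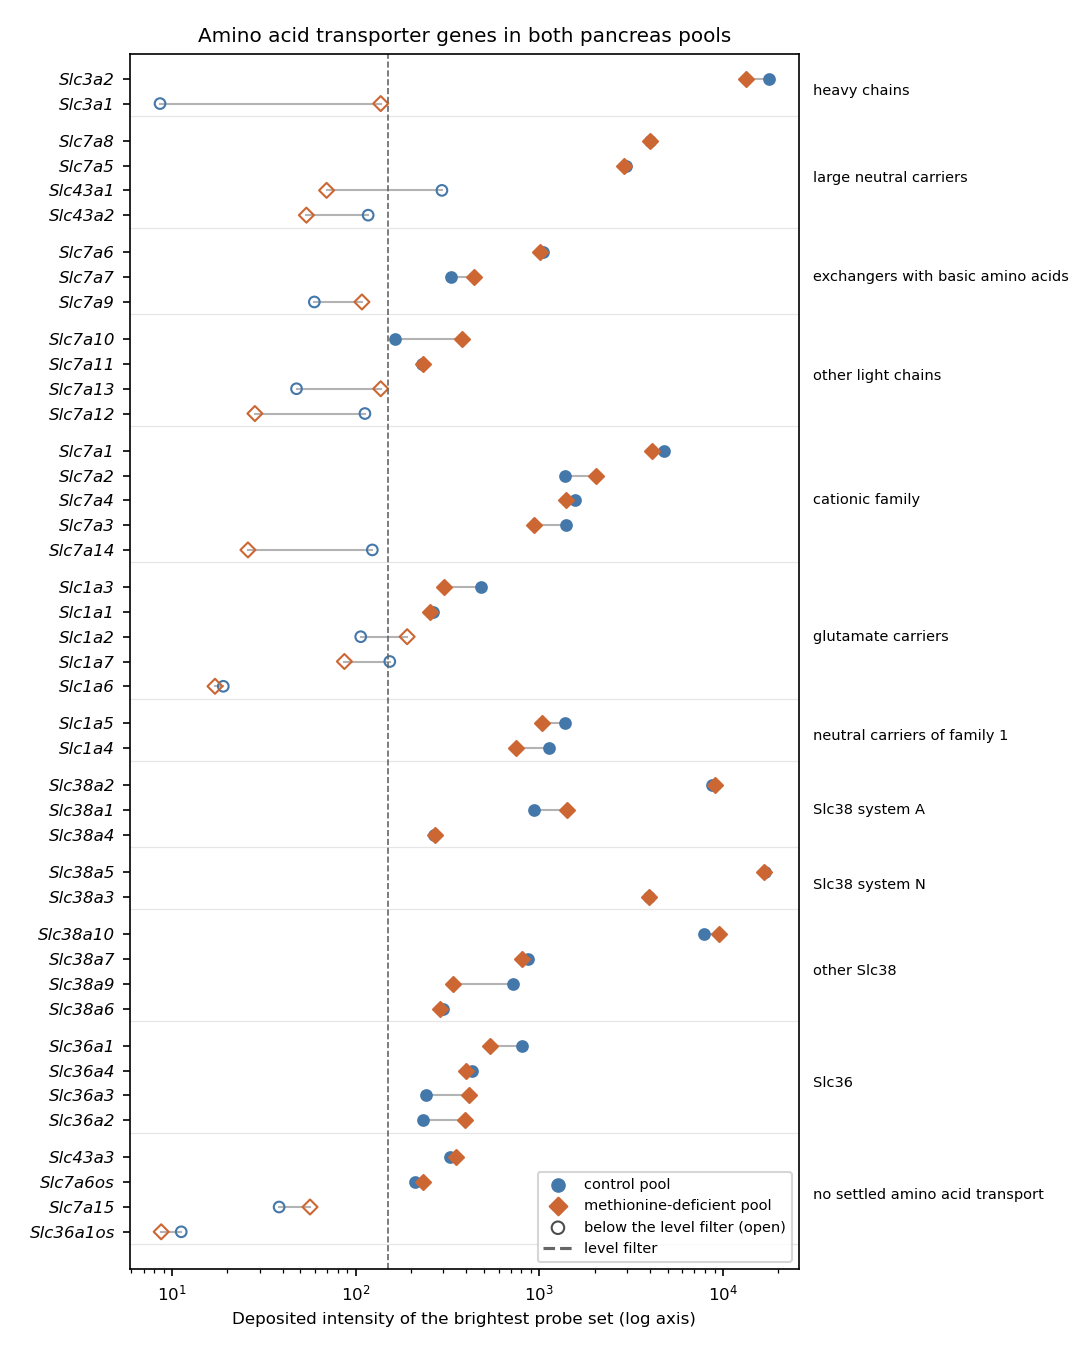
Deposited intensity (log axis) of the brightest probe set of each of the 42 genes in the control pool (circles) and the methionine-deficient pool (diamonds), 1 array each, grouped by role. Open symbols are genes below the level filter (dashed line, intensity 150), and some bright genes, such as Slc38a5 at 16901 and 16729, have nearly overlapping symbols.

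Of the 8 brightest carriers, 5 differed by less than 1 probe-set spread, and the others were Slc3a2 and Slc7a1, which were lower, and Slc38a10, which was higher. Intensities of different probe sets also depend on how well each binds, so the order below is one of intensities and not of transcript amounts. Within the 22 genes of the set that have more than 1 probe set, the brightest exceeded the dimmest by a median of 11.9 times in the control pool, and by 81.1 times for Slc38a10. Neighbours in the order are therefore not separated. The intensities of the 30 genes spanned 164 to 17768 in the control pool. In that pool the order began with Slc3a2, Slc38a5, Slc38a2, Slc38a10, Slc7a1, Slc7a8, Slc38a3 and Slc7a5, and the same 8 genes led in the methionine-deficient pool, with Slc38a5 and Slc3a2 changing places and Slc38a10 and Slc38a2 likewise. These 8 genes lay at or above the 90th percentile of all probe sets on both arrays. Further down, Slc7a4 was 9th and then 11th, and Slc7a2 11th and then 9th. Across the 30 genes the 2 pools had a Spearman rho of 0.927 for intensities, a correlation across genes that are read by the same probe sets on both arrays, which fixes much of the order.

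The heavy chain Slc3a2 was lower in the methionine-deficient pool. Its single probe set read 17768 in the control pool and 13288 in the other, a log2 difference of -0.42 beside a probe-set spread of 0.17. Of the 2791 genes in the same level bin, 6.66% differed at least as much in either direction. Every scaling tried kept it lower, between -0.37 with quantile scaling and -0.60 with scaling to the poly-A controls, bacterial transcripts meant to be added to the RNA before labelling. No second probe set was there to set against it. The other heavy chain, Slc3a1, pairs with Slc7a9 and is known for cystine uptake in kidney and gut. Its probe set read 8.60 and 137, below the level filter in both pools, so no size is given. Slc7a9 was also below the filter, at 59.6 and 108.

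The bright light chains that pair with Slc3a2 had smaller differences than it, though the gap itself was not tested. Slc7a5, known as LAT1, carries methionine, leucine and aromatic amino acids. It read 2964 in the control pool and 2906 in the other, a log2 difference of -0.03 (probe-set spread 0.17). Slc7a8, or LAT2, has a similar range of substrates. It read 4029 and 4018, a log2 difference of -0.0038. Both are bright, and the pools were closer for each than the probe-set spread. Slc7a6 and Slc7a7, the y+LAT exchangers, release basic amino acids in return for neutral ones such as methionine with sodium. Slc7a6 read 1043 and 1013 in its brighter probe set and 805 and 1023 in the other, with log2 differences of -0.04 and 0.35. Slc7a7 read 332 and 441 in its brighter probe set and 308.1 and 308.2 in the other, with log2 differences of 0.41 and 0.00027. For Slc7a6, then, the difference seen depends on the probe set, with only the dimmer one past the spread of 0.29. Both probe sets of Slc7a7 lay within 1 spread of 0, at a spread of 0.58.

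**Figure D2:**
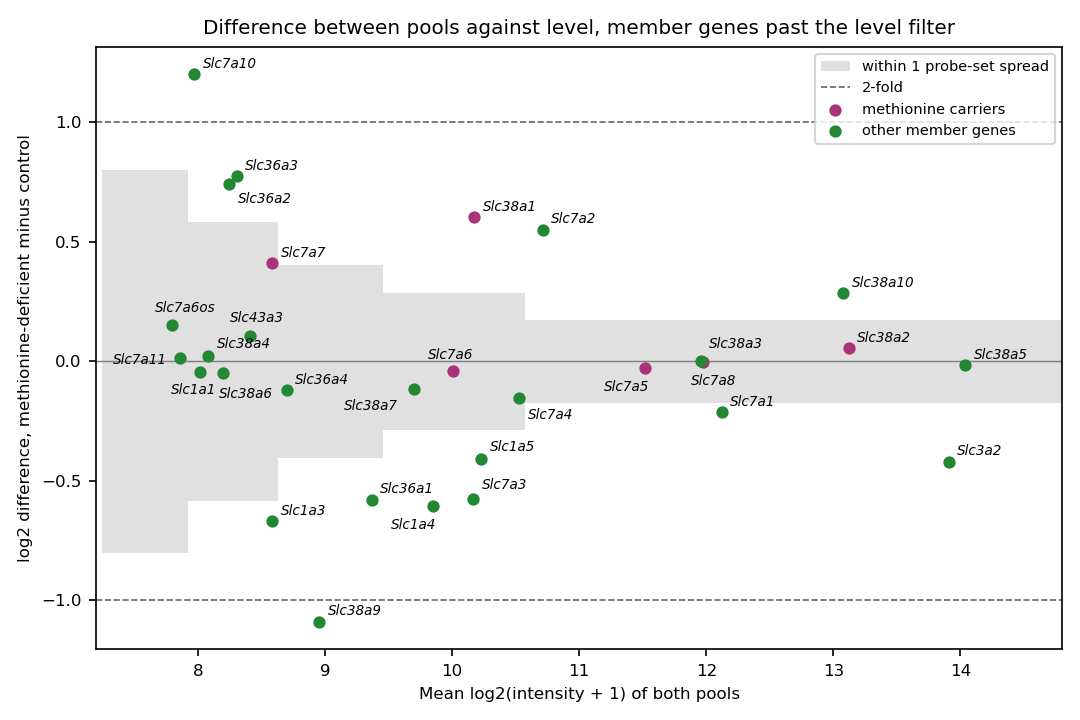
Log2 difference (methionine-deficient minus control) against the mean log2(intensity + 1) of both pools, for the 30 genes past the level filter. Grey bands mark 1 probe-set spread at each level, from 0.80 at the dim end to 0.17 at the bright end, dashed lines mark 2-fold, and methionine carriers are in purple. Slc7a10 and Slc38a9 lie beyond the 2-fold lines.

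Cystine enters in exchange for glutamate through Slc7a11, also named xCT, which supplies cysteine for glutathione. It was dim and close to equal in both of its probe sets, at 229.5 and 232.1 in the brighter and at 163 and 161 in the other. The log2 differences were 0.02 and -0.02, beside a spread of 0.80 at that level. Slc7a10, or Asc-1, carries glycine, serine, alanine and D-serine and is known from brain and fat. Its single probe set read 164 and 379, a log2 difference of 1.20 or 2.30-fold, with a spread of 0.58. Its control value lay just under that array's median, at percentile 49.95, and 6.41% of genes in its level bin differed at least as much.

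Methionine carriers as a group had a median difference near 0. Of the 8 genes listed, 6 were past the filter, 3 higher and 3 lower, with a median log2 difference of 0.03. This median has no settled direction. It was -0.03 with each array's median subtracted and -0.15 with scaling to the poly-A controls, but both settings shift every gene alike. The median of all genes was then -0.05 and -0.18. Without probe sets that can bind several transcripts the median over 5 methionine carriers was -0.0038. The split was 4 higher and 2 lower with quantile or loess scaling, and 2 and 4 with the poly-A controls. Slc38a2, or SNAT2, is the sodium-coupled carrier of small neutral amino acids that cells raise when starved of them. It read 8744 and 9088, a log2 difference of 0.06 (spread 0.17). Its other probe sets were much dimmer, with log2 differences of -0.02 and -0.29, so the gene was level in its bright probe set. Slc38a1, or SNAT1, a close relative with similar substrates, had the largest difference of the methionine carriers past the filter. It read 936 in the control pool and 1422 in the other, a log2 difference of 0.60 or 1.52-fold (spread 0.29). Its second probe set read 39.1 and 105, below the filter, at intensities where background can set the value. In the level bin of its brighter probe set 6.59% of 2611 genes differed at least as much.

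Both dedicated large neutral carriers of family Slc43 were below the filter. Slc43a1, or LAT3, facilitates the transport of leucine, phenylalanine and methionine. Its single probe set read 295 in the control pool and 69.4 in the other, so it was above the filter intensity in the control array and below it in the other. The log2 difference was -2.07, with no spread estimated below the filter. Slc43a2, or LAT4, was read through 3 probe sets, at 117 and 53.9, at 97.1 and 8.53, and at 14.0 and 29.2. The first pair and the second were lower and the last higher, all at intensities where background can set the value. Among the dimmest level bin of genes past the filter, 22.5% differed at least 2-fold, then 10.2%, 3.97% and 0.957% over the next bins and 0.394% in the brightest.

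Carriers of basic amino acids, the CAT family, were mixed. Slc7a1, or CAT1, is the widespread carrier of arginine and lysine. Its probe sets past the filter read 4790 and 4135, and 2829 and 2848, with log2 differences of -0.21 and 0.01, so these probe sets did not share the lower value. Another, below the filter, read 311 and 45.7, and with it the mean over probe sets was -0.98. Slc7a3, or CAT3, read 1403 and 940 in its single probe set, a log2 difference of -0.58 or 1.49-fold lower (spread 0.29). Slc7a2, or CAT2, went the other way. It read 1385 and 2031 in its brightest probe set, a log2 difference of 0.55 (spread 0.17), and 2.79% of genes in that level bin differed at least as much. Its next probe set gave 0.30 and the third past the filter -0.14, and the mean over its probe sets was 0.11. Slc7a4, a relative for which transport is not settled, gave -0.15 in its brightest probe set and 0.43 and 0.46 in the others. Slc7a14, at 123 and 25.9, was below the filter.

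**Figure D3:**
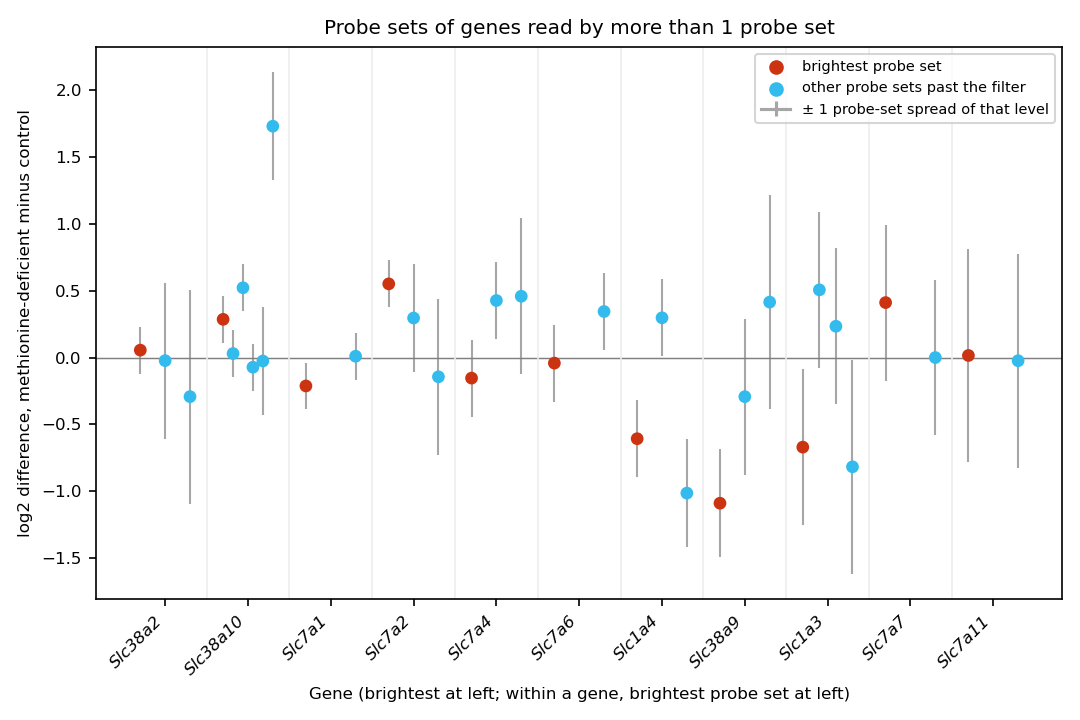
Log2 difference (methionine-deficient minus control) of each probe set past the level filter, for the 11 genes with more than 1 such probe set, with the brightest probe set in red and bars of 1 probe-set spread. In 10 of the 11 genes the probe sets fall on both sides of 0, among them Slc1a4, Slc38a9 and Slc7a2. For Slc38a9 the probe set above 0 passed the filter only through the methionine-deficient pool, where it is high.

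Probe sets of the same gene rarely shared a direction. Of 11 genes with more than 1 probe set past the filter, 1 had them all on the same side of 0, against 39.6% of 4819 such genes over the array. The more probe sets a gene has, the less often all agree, and for genes with exactly 2 the counts were 1 of 4 and 51.5%. In Slc7a1, Slc7a11, Slc38a2, Slc38a10 and Slc7a7 at least 1 of the differences was within 0.03 of 0, so that its sign carries little. Slc38a9 counts as split through a probe set at 145 and 193, which passed the filter only through the pool where it is high. The gene counted as sharing a direction is Slc7a7, through the difference of 0.00027 given above. Of the 30 genes, 12 rest on a single probe set, Slc3a2, Slc7a3, Slc7a10 and Slc36a1 among them.

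Family Slc1 joins carriers of glutamate with carriers of neutral amino acids. Its 4 genes past the filter were all lower from their brightest probe sets, with a median log2 difference of -0.51, where 50% of all genes were lower. With the mean over probe sets 3 of the 4 Slc1 genes were lower. Slc1a5, or ASCT2, exchanges glutamine for other neutral amino acids. It read 1383 and 1041, a log2 difference of -0.41 (spread 0.29). A second, dim probe set read 29.4 and 235, and with it the mean over probe sets was 1.27, in the other direction. Slc1a4, or ASCT1, carries serine, alanine and cysteine. Its brightest probe set read 1135 and 745, a log2 difference of -0.61 (spread 0.29), and its next 2 read 640 and 786, and 646 and 319, with log2 differences of 0.30 and -1.01. Slc1a3, the glial glutamate carrier GLAST, gave log2 differences of -0.67, 0.51, 0.24 and -0.82 over its 4 probe sets past the filter, at spreads of 0.58 to 0.80. Slc1a1, the glutamate carrier EAAC1, read 262 and 254, a log2 difference of -0.04 beside a spread of 0.58, so its sign carries little. Slc1a2, Slc1a6 and Slc1a7 were below the filter. Slc1a4 and Slc1a3 thus each had probe sets on both sides of 0.

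Glutamine carriers of system N were bright and close to equal in both pools in their brightest probe sets. Slc38a5, or SNAT5, moves glutamine, asparagine and histidine with sodium in exchange for protons. It read 16901 in the control pool and 16729 in the other, a log2 difference of -0.01 (spread 0.17). Slc38a3, or SNAT3, which has similar substrates, read 3974 and 3982, a log2 difference of 0.0030. Its dim second probe set read 84.4 and 43.9, and the mean over its probe sets was -0.46. Of the genes in the brightest level bin, 93.4% differed at least as much as Slc38a5 and 98.7% at least as much as Slc38a3. Slc38a10, an intracellular member whose role is less clear, read 7840 and 9562 in its brightest probe set, a log2 difference of 0.29. Its 6 probe sets past the filter ran from -0.07 to 1.73, and 2 of them were lower. Slc38a4 and Slc38a6 were dim and level, at 0.02 and -0.05.

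Carriers of the lysosome link amino acids to mTORC1, the kinase complex that drives protein synthesis when amino acids are at hand. Slc38a9 senses arginine inside the lysosome and signals to mTORC1. Its brightest probe set read 722 in the control pool and 339 in the other, a log2 difference of -1.09 (spread 0.40). The next read 371 and 302 (-0.29), and the third past the filter 145 and 193 (0.42), and the mean over its 7 probe sets was -0.34. The 2-fold size thus rests on 1 probe set. Slc38a7, which exports glutamine from lysosomes, read 866 and 800 (-0.11). Slc36a1, or PAT1, a proton-coupled carrier of small neutral amino acids found on lysosomes, read 807 and 540, a log2 difference of -0.58 (spread 0.40). Slc36a4 was level at 432 and 398. Slc36a2 and Slc36a3 were higher, at 234 and 392 and at 241 and 413, with log2 differences of 0.74 and 0.78 beside a spread of 0.58. All 4 of these were read through a single probe set each.

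**Figure D4:**
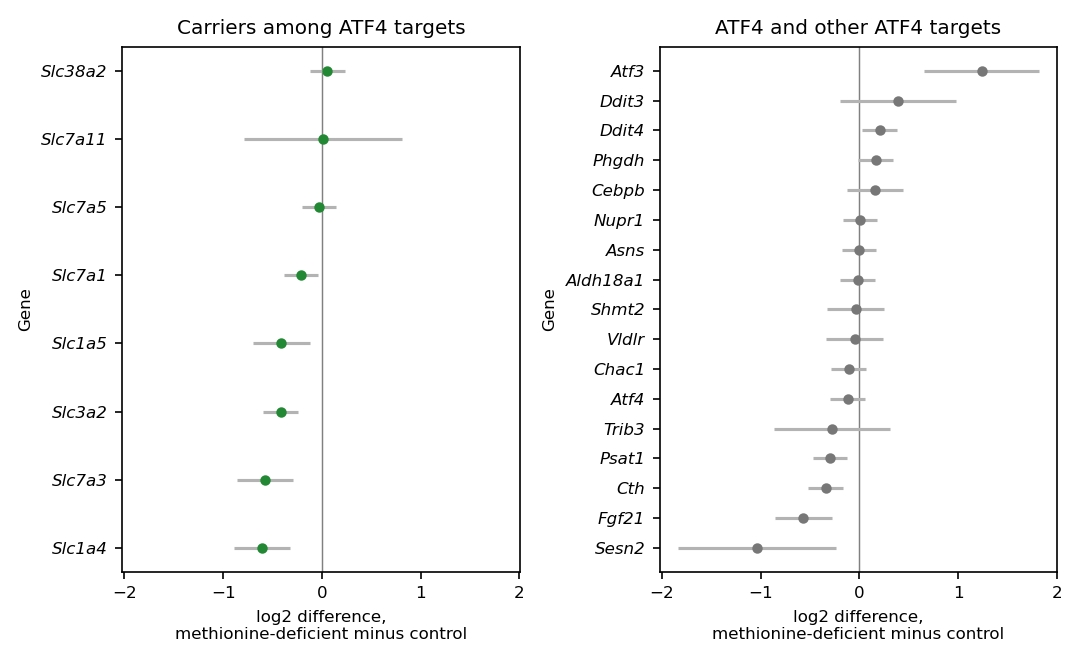
Log2 difference (methionine-deficient minus control) of the brightest probe set of each gene, with bars of 1 probe-set spread, for 8 carriers known as ATF4 targets (left) and for Atf4 and 16 other targets (right). The carriers run from -0.61 for Slc1a4 to 0.06 for Slc38a2.

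Among the 8 carriers known as targets of ATF4, 6 were lower and 2 higher, with a median log2 difference of -0.31. This stands beside the 50% and, in the brightest level bin, 55.2% given above. The lower genes were Slc1a4 (-0.61), Slc7a3 (-0.58), Slc3a2 (-0.42), Slc1a5 (-0.41), Slc7a1 (-0.21) and Slc7a5 (-0.03), and Slc7a11 and Slc38a2 were at 0.02 and 0.06. The median lay between -0.49 and -0.21 under the other scalings and choices of probe set. With median centring, quantile or loess scaling 7 of the 8 carriers were lower, and with the poly-A controls all 8. Under these scalings the signs that turned were those of Slc7a11 and, with the poly-A controls, Slc38a2, both near 0 with no rescaling. Median centring and poly-A scaling shift every gene alike, to all-gene medians of -0.05 and -0.18. The 50% and 55.2% are shares with no rescaling, so they do not stand beside these counts. They also rest on brightest probe sets. With the mean over probe sets 7 of the 8 carriers were lower, with Slc7a11 and Slc38a2 turned to -0.0038 and -0.09. Slc1a5 was then the higher one, at 1.27. Atf4 and the other targets had a median nearer 0. Of 17, 11 were lower and 6 higher, with a median of -0.04. Atf4 itself read 10457 and 9643 (-0.12), and the asparagine synthetase gene Asns was level. Past 1 probe-set spread were 6 of the 17, or 35.3%, against 34.7% of all genes. Fgf21 (-0.57), Cth (-0.34), Psat1 (-0.30) and Sesn2 were lower, and Ddit4 (0.21) and Atf3 higher. The stress gene Atf3 was 2.36-fold higher, from 191 to 451, and Sesn2, a leucine sensor, was 2.05-fold lower, from 337 to 164. Both are dim, with spreads of 0.58 and 0.80.

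The ATF4 element was looked for in RefSeq promoters of build GRCm38.p6, from 250 bases before to 50 bases after each annotated start, as TGATGNAA or, on the other strand, TTNCATCA. Of the 42 genes 31 matched to a promoter, and 3 of these held the element, Slc7a11, Slc1a4 and Slc7a7, or 9.68%, beside 4.51% of 27025 genes in all. The stretch from 160 bases before the start to 10 from it is shown for these 3 and for Slc3a2, so that the letters can be set beside the values. Slc3a2 was the brightest gene of the set that was lower by more than 1 probe-set spread. Capitals mark the element. The Slc7a11 stretch is chr3:50443604-50443773, that of Slc1a4 chr11:20332704-20332873, that of Slc7a7 chr14:54417935-54418104 and that of Slc3a2 chr19:8713888-8714057, all on the minus strand and written 5′ to 3′ along the gene.
Slc7a11: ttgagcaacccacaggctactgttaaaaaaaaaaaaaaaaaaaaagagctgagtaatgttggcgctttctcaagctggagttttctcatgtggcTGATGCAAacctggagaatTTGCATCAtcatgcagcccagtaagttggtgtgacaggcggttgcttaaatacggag
Slc1a4: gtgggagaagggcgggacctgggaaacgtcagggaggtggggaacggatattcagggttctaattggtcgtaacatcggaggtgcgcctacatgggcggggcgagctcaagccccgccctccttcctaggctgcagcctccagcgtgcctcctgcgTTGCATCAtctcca
Slc7a7: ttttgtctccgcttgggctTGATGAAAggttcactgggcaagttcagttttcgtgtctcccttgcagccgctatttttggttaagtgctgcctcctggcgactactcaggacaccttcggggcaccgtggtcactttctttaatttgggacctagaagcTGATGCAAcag
Slc3a2: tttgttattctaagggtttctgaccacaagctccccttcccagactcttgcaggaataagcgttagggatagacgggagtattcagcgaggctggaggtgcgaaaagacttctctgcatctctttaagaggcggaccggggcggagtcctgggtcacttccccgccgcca

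Slc7a11 held the element on both strands, starting 66 and 47 bases before the start, and was level between the pools. Slc1a4 held it from 4 bases before the start, so that it spans the start, and its probe sets were -0.61, 0.30 and -1.01. Slc7a7 held it starting 141 bases and 1 base before its most upstream start, and the nearer match spans that start. Slc3a2 held none in this window, which says nothing of ATF4 at other places in the gene. A match is a run of letters and not a site shown to be bound.

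Amino acid carriers outside these families were evenly split in direction. Of 30 measured, 20 were past the filter, 10 higher and 10 lower, with a median log2 difference of -0.03. At least 1.5-fold differences were seen in 6 higher genes and 1 lower of the 20, or 35%, Slc32a1 among the higher. Over all genes the share was 19.4%, with 10.4% higher and 9% lower. Past 1 probe-set spread were 35% of the 20, against 34.7% of all genes. Slc32a1, the vesicular carrier of GABA and glycine, read 101 and 309, so it passed the filter only through the pool where it is high and had to differ. The mitochondrial glutamate carrier Slc25a18 read 213 and 499. Slc25a29, a mitochondrial carrier of basic amino acids, read 654 and 1037 (0.67, spread 0.29), and Slc25a13, the aspartate-glutamate exchanger of mitochondria, 373 and 578 (0.63, spread 0.40). Slc6a15 read 183 and 288. The lower gene was the lysosomal histidine and peptide carrier Slc15a4, at 406 and 226 (-0.85, spread 0.58). Slc25a26, which brings S-adenosylmethionine into mitochondria and was named after its values were seen, read 297 and 225 (-0.40, spread 0.58).

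Genes of amino acid sensing upstream of mTORC1 were mixed in direction. All 32 measured were past the filter, 19 higher and 13 lower, with a median of 0.05, and 29 differed by less than 1.5-fold (90.6%, against 80.6% of all genes). By the probe-set spread, 13 of 32 lay past 1 spread, or 40.6%, against 34.7%. The genes past 1.5-fold, all 3 also past 2-fold, were Sesn3, at 290 and 800 (log2 difference 1.46, spread 0.40), Wdr24, a subunit of the GATOR2 complex, at 116 and 312 (1.42, spread 0.80), and Sesn2, given above. Wdr24 was under the filter intensity in the control pool and passed only through the other. Sesn3 and Sesn2, related proteins, therefore lay in opposite directions. Their much brighter relative Sesn1 read 8589 and 9362, a log2 difference of 0.12 within its spread of 0.17.

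The tissue label fits its defining transcripts, with all 6 measured acinar markers past the filter and summed intensities of 626679 for controls and 624135 for the other pool. Several other marker sums were farther apart. Of the 6 B and plasma cell markers 5 were lower, with summed intensities of 11012 and 5867. Of the 3 duct markers past the filter all were higher (1351 and 1766), as were 3 of 4 endothelial ones (1550 and 1863). All 3 adipocyte ones were lower (15357 and 12989). Past 1 probe-set spread were 4 of 6 B and plasma, 2 of 3 duct, 0 of 4 endothelial and 3 of 3 adipocyte markers. Of all genes past the filter 50% were lower and 34.7% lay past 1 spread. Alpha cell markers summed to 35487 and 40163, with Gcg higher and Ttr lower, and beta cell markers to 147584 and 148790. The macrophage markers split 3 and 3, with a median log2 difference of 0.01, and their sums of 5995 and 7548 differ largely through C1qa, at 1181 and 2381. The nerve sums of 734 and 1070 differ largely through Ngfr, at 107 and 364, under the filter intensity in the control pool. Fibroblast markers summed to 17598 and 16905, and Cd2, the T cell marker past the filter, read 243 and 205. RNA quality, read as the signal at the 3′ end over that at the 5′ end, gave ratios of 1.46 and 1.76 for Actb and 0.973 and 1.11 for Gapdh. The part of these shifts in the carrier differences was not tested. In a pool of whole tissue, fewer cells of a type and less RNA per cell cannot be told apart.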

How the data were processed

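Pooled pancreas RNA was hybridised to 2 arrays, 1 per group, after labelling with a 3′ IVT kit, per the labels' protocols. The deposited values are linear intensities per probe set. How the authors corrected background and scaled the arrays is not stated in the labels, though the mean without the top and bottom 2% of values was 500.003 on each array. The number of arrays limits the precision.

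Of 45101 probe sets, 34945 had 1 gene symbol in the platform annotation, and 34741 were brought to current symbols through gene identifiers. Values were taken to log2(intensity + 1) with no rescaling. The brightest probe set stood for a gene, and 11848 of 18193 genes reached the median level. The spread came from neighbouring probe sets of a gene in 5 level bins, and the script was tested on simulated data. Alternatives were other scalings, pseudocount, level filters, choices of probe set and fold sizes. Every member gene could be named, beside the largest differences of other lists, up to 6 each. The members and lists were chosen with earlier results of these data known. Python 3.11.15, numpy 2.4.6 and pandas 2.3.3 were used.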

Additional observations from a re-analysis of the deposited data

How the results depend on the processing

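With 1 array per group, no value here has a replicate check. With median, quantile or loess scaling and with a pseudocount of 16, all 30 genes stayed within 1 probe-set spread of the reported log2 difference, and 1 gene was at least 2-fold higher and 1 lower, as reported. At least 2-fold higher were 3 of 42 genes with no level filter (12.8% of all genes under that setting), 0 of 18 with a filter at the 75th percentile (0.753%) and 2 of 26 when probe sets were averaged (4.81%). At 1.5-fold 4 of 30 were higher (10.4%), and at 3-fold 0 (1.09%). Lower were 5 of 42 with no filter (11%), 0 of 26 when probe sets were averaged (3.72%), 3 of 30 at 1.5-fold (9%) and 0 at 3-fold (0.726%). When only genes with probe sets on the same side of 0 count, a choice added after seeing the data, 0 of 20 were lower (3.39%). That choice leaves out Slc38a9 through a probe set that passed the filter only through the methionine-deficient pool. The median over the carriers was -0.078 with the 75th percentile filter. Scaling to the poly-A controls, also added, shifted the median of all genes by -0.18 and gave -0.20 for the 30 genes of the set and -0.15 for the methionine carriers. The mean over probe sets moved 8 of 30 genes by more than 1 spread and turned 6 signs, among them Slc1a5 (1.27). Without probe sets that can bind several transcripts 28 of the genes had a value, Slc3a2 not among them. In the intensity order Slc7a2 was 9th and Slc7a4 11th in the methionine-deficient pool. No paired analysis was possible because each group is 1 pool on 1 array.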
